A study of Homo sapiens with 66 samples.

Results

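OCI-AML2, an acute myeloid leukaemia (AML) cell line of the M4 class, was compared after etoposide and untreated. The comparison holds 6 of the 66 libraries of the series, taken by their titles as 3 untreated and 3 etoposide libraries. Untreated cells received medium only. Treated cells received etoposide for 24 hours at the IC50 of the cell line, 0.29 µM, the lowest concentration among the 11 cell lines of the series. No genetic change was introduced, both groups are cultures of 1 established line, and each library was made from cells of 3 pooled wells, so the p-values below measure the spread between such pools. The study left the treated OCI-AML2 libraries out of its own comparisons because the raw reads did not pass its quality control.

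Etoposide is a poison of type II topoisomerases, the enzymes that pass one DNA duplex through a transient break in another. It holds TOP2A and TOP2B on the cut DNA, and the trapped complexes become double-strand breaks. Breaks activate the kinases ATM and ATR, which stabilize the transcription factor p53, and p53 in turn raises genes of cell cycle arrest, cell death, DNA repair and its own negative feedback.

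The 6 libraries held between 18896678 and 21146445 reads on genes, within the range of the other 60 libraries (17997404 to 24101670). Their correlation with the other libraries of OCI-AML2, over log2(CPM + 1) where CPM is the usual count scaled by library size, was at least 0.99827. The 10 myeloid markers were all present at 1 CPM or more (lysozyme, LYZ, at 4940 to 5379 CPM), while HBG1, HBB, MS4A1, CD3E and PF4 of other lineages had 0 reads. With 3 reads per group as the limit for a count of 0, their level could be up to 0.0495 CPM untreated and 0.0498 CPM after etoposide, for counting error only. Of the megakaryocyte markers, ITGA2B was at 3.11 to 3.90 CPM and GP9 at 2.55 to 3.33 CPM over the 6 libraries. The lymphoid markers CD79A and CD3D had reads but stayed under 1 CPM. The summed level of the myeloid markers was 6074 to 6187 CPM in the untreated and 6338 to 6474 CPM in the etoposide libraries, a shift carried by LYZ, while that of the megakaryocyte markers was 5.66 to 6.71 and 5.91 to 7.23 CPM; their part in the results below was not tested.

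The treated replicates differed more among themselves than the untreated ones. The chi-square per degree of freedom between pairs of libraries, which is about 1 when 2 libraries differ by sampling alone, was 2.05 to 4.19 among the untreated and 5.09 to 13 among the etoposide libraries. Etoposide replicate 3 lay apart from replicates 1 and 2, and the difference followed the GC content of the genes. In the fifth of genes richest in GC, the median deviation from the mean of the 6 libraries was 0.10 (log2) in etoposide replicate 3, but -0.10 and -0.06 in replicates 1 and 2. The 3 untreated libraries lay between 0.00 and 0.05 there.

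**Figure D1:**
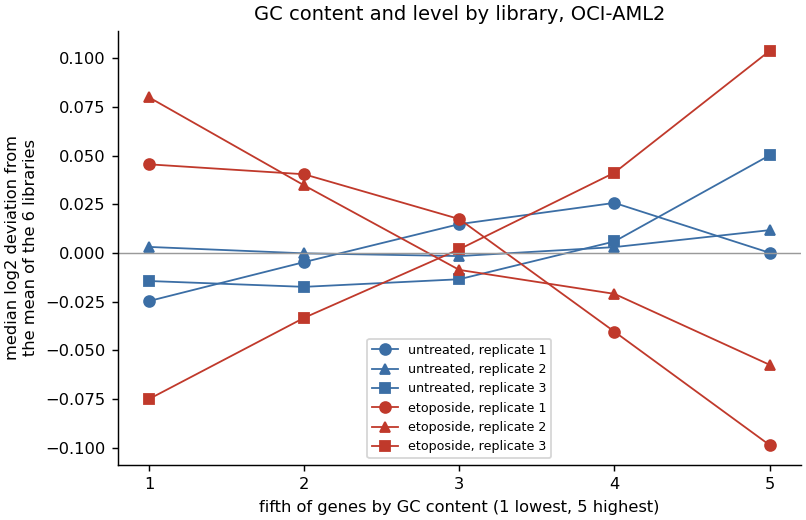
Median deviation of each library from the mean of the 6 OCI-AML2 libraries (log2, vertical axis) in 5 equal groups of genes by GC content (horizontal axis), with blue lines for untreated and red lines for etoposide libraries. Etoposide replicate 3 rises with GC content while etoposide replicates 1 and 2 fall.

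The median log2 fold change of all genes ran from 0.03 in the fifth poorest in GC to -0.04 in the richest, the direction of etoposide replicates 1 and 2 and opposite to that of replicate 3, and was between -0.0035 and -0.0012 in all 5 groups once the trend was removed from each library. Medians of whole lists in OCI-AML2 are given below with their value after GC correction, and the main results also without etoposide replicate 3.

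No gene met the study's own criterion, an FDR below 0.05 with a change above 2-fold, among 13604 genes tested (0.0% called) with edgeR's quasi-likelihood test. The changes that passed the FDR limit at any size were 3, all upward: CDKN1A, MDM2 and ZMAT3 (0.0221% of the genes tested). The replicate numbers were taken to pair the libraries, which the labels do not state. With the replicate number as a block 20 genes passed, again all upward (0.147% of the genes tested). Left out one at a time, each of the 3 untreated libraries and etoposide replicate 1 left 1 gene called (CDKN1A), etoposide replicate 2 left 2, and etoposide replicate 3 gave 45 genes, 27 higher and 18 lower. At an unadjusted p under 0.05, 310 genes were higher (2.28%) and 146 lower (1.07%) after etoposide. The 25 genes of smallest p were all higher, and 16 of them stand on one of the 2 lists of p53 targets described next. Those lists were chosen with earlier results of these data known. The first gene lower after etoposide was the mitotic kinesin KIF20A, at rank 44.

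**Figure D2:**
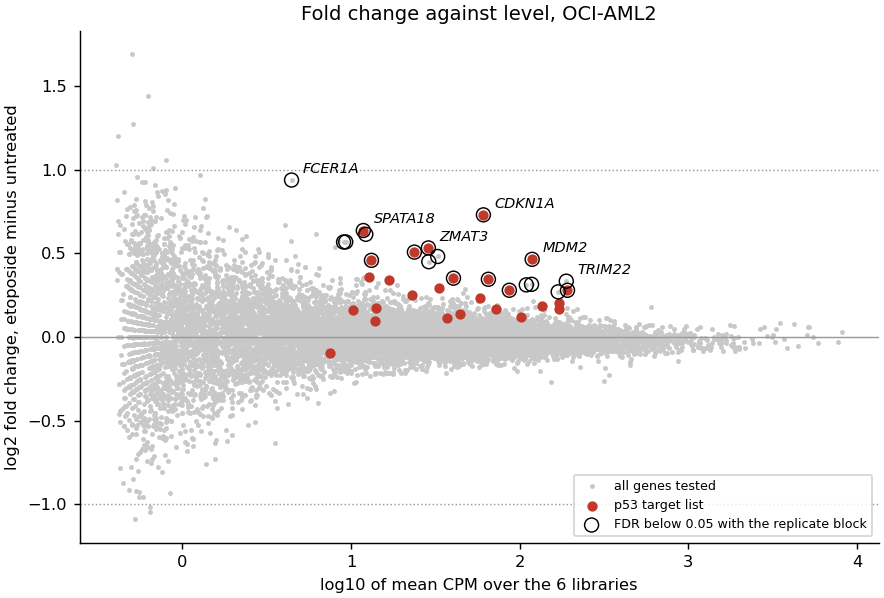
Log2 fold change, etoposide minus untreated (vertical axis), against the log10 of the mean CPM of the 6 libraries (horizontal axis) for the 13604 genes tested, with the 26 p53 targets in red and the 20 genes called with the replicate block circled. All circled genes lie above 0, and dotted lines mark a 2-fold change, which no circled gene reaches.

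CDKN1A encodes p21, the inhibitor of cyclin-dependent kinases that carries the p53 arrest. Its level was 44.7, 48.1 and 44.7 CPM in the untreated libraries and 80.0, 73.1 and 75.1 CPM in the etoposide libraries. The groups did not overlap, and every treated library was at least 1.5 times the highest untreated one. CDKN1A rose 1.66-fold (log2 fold change 0.73, SE 0.06, edgeR adjusted p = 0.000289).

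MDM2, the ubiquitin ligase that degrades p53, measured 97.6, 103 and 98.0 CPM untreated and 134, 145 and 133 CPM after etoposide. The 3 treated libraries were close to each other and well above the untreated ones. Its rise was 1.38-fold (log2 fold change 0.47, SE 0.05, edgeR adjusted p = 0.00593).

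ZMAT3, a p53-induced zinc finger protein that binds RNA, was at 24.9, 23.1 and 22.5 CPM untreated and at 35.0, 34.7 and 32.4 CPM after etoposide. It rose 1.45-fold (log2 fold change 0.53, SE 0.07, edgeR adjusted p = 0.0192). With 1 library left out, ZMAT3 kept its call only without etoposide replicate 3, and MDM2 only without etoposide replicate 2 or 3. Over all alternatives run, the adjusted p reached 0.266 for ZMAT3 and 0.104 for MDM2, while CDKN1A passed in each (up to 0.0405).

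The genes called with the replicate block spanned log2 fold changes of 0.27 to 0.94. Of the 20, 14 (70%) stand on one of the p53 lists, which hold 0.662% of the genes tested. These lists were chosen with earlier results of these data known, so the share is a description and not a test. The 10 from the main list were CDKN1A, MDM2, ZMAT3, SPATA18, FDXR, SESN1, TNFRSF10B, PHLDA3, DDB2 and TP53INP1. The 4 from the further list were TRIM22, CYFIP2, RPS27L and VWCE. The other 6 were MIR34AHG, the EDA2 receptor gene EDA2R, FCER1A (the alpha chain of the high-affinity IgE receptor), CSPG4 (a membrane proteoglycan), the nuclear non-coding RNA NEAT1 and an unnamed gene, ENSG00000268205. NEAT1 depended most on the block, with 92.3, 102 and 120 CPM untreated and 121, 127 and 143 CPM after etoposide, where the lowest treated library was barely above the highest untreated one. Its edgeR adjusted p was 0.00875 with the block and 0.998 without it. With GC correction beside the block 33 genes were called, including all 20.

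MIR34AHG, on the minus strand of chromosome 1 (9148011 to 9198906, GRCh38), is the host transcript of MIR34A, a microRNA that p53 induces. The counts are reads assigned to the host gene, where reads of the opposite strand may be included. The mature microRNA was not measured. MIR34AHG was at 9.58, 10.6 and 8.82 CPM untreated and at 14.8, 16.3 and 13.3 CPM after etoposide, and it rose 1.53-fold with the block (edgeR adjusted p = 0.00748, against 0.084 without the block). The main mature product of this locus is shown because its seed (bases 2 to 8, in capitals) sets which messages it represses, with the sequence from RefSeq (GRCh38.p14).
hsa-miR-34a-5p: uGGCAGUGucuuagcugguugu

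p53 binds a consensus of 2 decamers, each with a central core of 4 bases. The genome was searched for it within 2500 bases of the RefSeq-listed start of each gene tested, with both cores intact and at most 2 mismatches elsewhere; the consensus reads the same on both strands. Of the 20 genes called with the block, 14 have a listed start and 5 of these hold a match (35.7%), compared with 7 of 21 on the main p53 list (33.3%) and 261 of 9977 genes tested (2.62%). The 5 sites follow in the direction of the gene with the cores in capitals. They are shown for the 5 genes that hold a match, and the rest of the 14 hold none under this rule.
CDKN1A, chr6:36676449-36676468, at -2265 from the listed start, in an exon of a longer transcript: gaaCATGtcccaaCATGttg
ZMAT3, chr3:179070188-179070207, at -865 from the listed start, in an intron of a longer transcript: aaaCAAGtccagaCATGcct
MIR34AHG, chr1:9182144-9182163, at 175 from the listed start, in an exon: gggCTTGcctgggCTTGttc
EDA2R, chrX:66638563-66638582, at 496 from the listed start, in an intron: gggCAAGtcagggCTTGtgt
SPATA18, chr4:52051957-52051976, at 653 from the listed start, in an intron: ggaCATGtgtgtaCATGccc
The ZMAT3 and MIR34AHG sites match without a mismatch, and those of CDKN1A, EDA2R and SPATA18 with 2. Positions are on GRCh38, and distances in bases run from the listed start to the first base of the site, negative upstream. A match describes the sequence and does not show that p53 was bound in these cells.

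The main list of p53 targets holds 26 genes, all of which were tested. Their median log2 fold change was 0.26, beside 0.0004 over all genes tested, and 25 of 26 were above 0 (50.2% of all genes). At an unadjusted p under 0.05, 20 were higher and 0 lower (2.28% and 1.07% of all genes). The groups did not overlap for 22 genes, all with the etoposide libraries above (5.37% of all genes lay apart upward and 3.56% downward). In single libraries, the median deviation of the list from the untreated mean was 0.24, 0.27 and 0.25 in the 3 etoposide libraries, compared with -0.0004 to 0.0034 in the untreated ones. Etoposide replicate 3, which lay apart in GC content, thus carried the shift to the same size as the other two. The median was 0.25 without that library and 0.26 after GC correction.

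**Figure D3:**
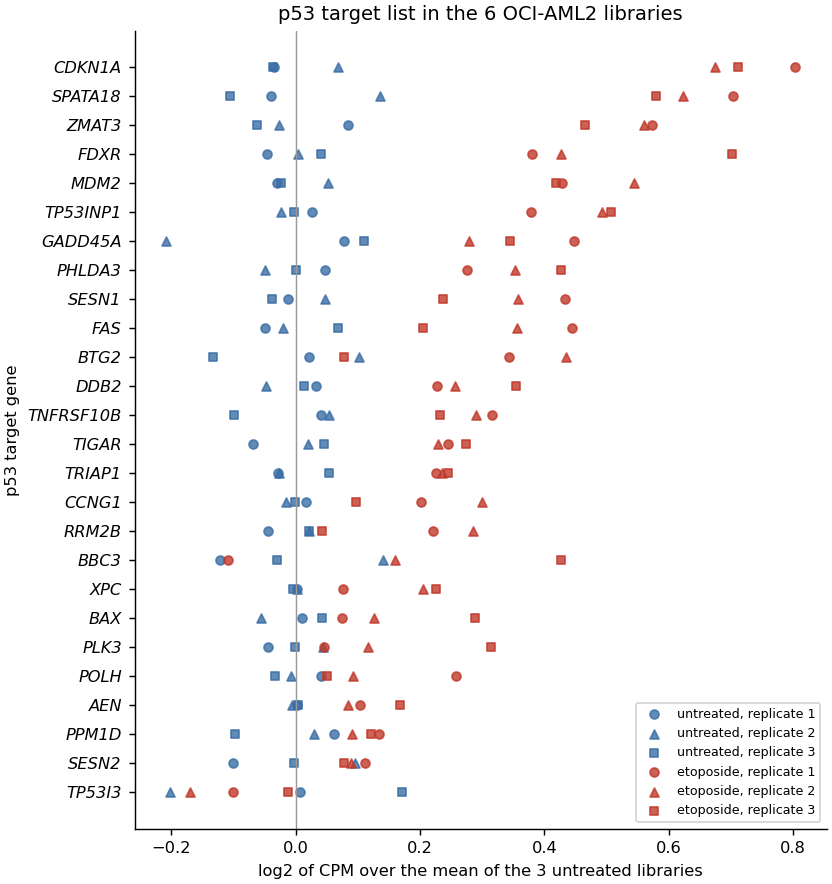
Log2 of the CPM over the mean of the 3 untreated libraries (horizontal axis) for each of the 26 p53 targets (vertical axis), with untreated libraries in blue and etoposide libraries in red and the replicate given by the symbol. The etoposide libraries lie above all untreated ones for 22 genes, and TP53I3 alone has a fold change below 0.

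Among the 7 genes of cell cycle arrest and growth control the median was 0.29. Beside CDKN1A, the stress-induced sestrin SESN1 was at 57.0, 59.4 and 56.0 CPM untreated and 77.6, 73.7 and 67.8 CPM after etoposide, and it rose 1.27-fold with the block (edgeR adjusted p = 0.0123). GADD45A, a growth arrest gene, had 11.9, 9.73 and 12.1 CPM untreated and 15.3, 13.6 and 14.3 CPM after etoposide. The groups lay apart, but the gene did not pass the FDR limit in either fit (edgeR adjusted p = 0.998 and 0.379 with the block). BTG2, an anti-proliferative co-regulator, had its lowest treated library (31.5 CPM) below its highest untreated one (32.1 CPM), and SESN2, at a log2 fold change of 0.09, overlapped between the groups as well.

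The 4 genes of feedback on p53 and AKT had a median of 0.41. PHLDA3, an inhibitor of AKT signalling, measured 36.8, 34.4 and 35.6 CPM untreated and 43.1, 45.5 and 47.8 CPM after etoposide, and rose with the block (log2 fold change 0.35, edgeR adjusted p = 0.0293). PPM1D, the phosphatase that turns off p53 and ATM signals, had a log2 fold change of 0.11 (SE 0.06) that did not pass. MDM4, the partner of MDM2 in restraining p53, was named after its values were seen and was at 109 to 115 CPM untreated and 126 to 135 CPM after etoposide (log2 fold change 0.22, edgeR adjusted p = 0.506).

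Of the 9 cell death genes, with a median of 0.24, 7 had an unadjusted p under 0.05. SPATA18, which acts in the removal of damaged mitochondria, was at 9.01, 10.2 and 8.61 CPM untreated and 15.1, 14.3 and 13.9 CPM after etoposide. It rose 1.56-fold with the block (edgeR adjusted p = 0.00748, and 0.0519 without it). The death receptor gene TNFRSF10B, at 178, 180 and 162 CPM untreated and 216, 212 and 204 CPM after etoposide, rose 1.21-fold with the block (edgeR adjusted p = 0.0138). TP53INP1, a cofactor of p53 in apoptosis and autophagy, went from 11.1 ± 0.195 to 15.3 ± 0.731 CPM (SD, n = 3 each) and passed with the block (edgeR adjusted p = 0.0461).

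The pore-forming BAX had a log2 fold change of 0.17 (SE 0.06) and the death receptor gene FAS one of 0.34 (SE 0.09). Neither passed the FDR limit, although the groups of both lay apart. BBC3, which encodes the BH3-only protein PUMA, was at 12.2, 14.6 and 13 CPM untreated and at 12.3, 14.8 and 17.8 CPM after etoposide, an overlap. TP53I3, an oxidoreductase, was the single list member below 0 (log2 fold change -0.09, SE 0.12), with overlapping groups.

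The 6 repair and metabolism genes had a median of 0.22 and non-overlapping groups throughout. FDXR, the mitochondrial ferredoxin reductase, was at 18.98, 19.7 and 20.2 CPM untreated and at 25.5, 26.4 and 31.9 CPM after etoposide, with its highest value in etoposide replicate 3. It rose 1.42-fold with the block (edgeR adjusted p = 0.00748, and 0.102 without it). DDB2, a sensor of damaged DNA in nucleotide excision repair, rose from 78.5 ± 2.30 to 95.3 ± 4.44 CPM (SD, n = 3 each, edgeR adjusted p = 0.0397 with the block). XPC, POLH, RRM2B and TIGAR had log2 fold changes of 0.14 to 0.25 and did not pass.

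The list of further p53 targets, genes less often named but recurrent in p53 studies, had 64 of its 67 members tested and a smaller shift. The median log2 fold change was 0.10 (0.09 after GC correction), and 54 of 64 were above 0 (50.2% of all genes). At an unadjusted p under 0.05, 17 were higher and 0 lower (2.28% and 1.07% of all genes). The groups lay apart upward for 21 and downward for 0 (5.37% and 3.56% of all genes). Without etoposide replicate 2 the median was 0.07, and without etoposide replicate 3 it was 0.13. CYFIP2, a regulator of actin nucleation, measured 98.4, 98.5 and 96.1 CPM untreated and 118, 122 and 124 CPM after etoposide, with a spread of a few CPM in each group. TRIM22, an antiviral ubiquitin ligase, was at 165 to 169 CPM untreated and at 194 to 224 CPM after etoposide. Both passed with the block (edgeR adjusted p = 0.00942 and 0.00748) and missed the limit without it (0.0523 and 0.079).

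**Figure D4:**
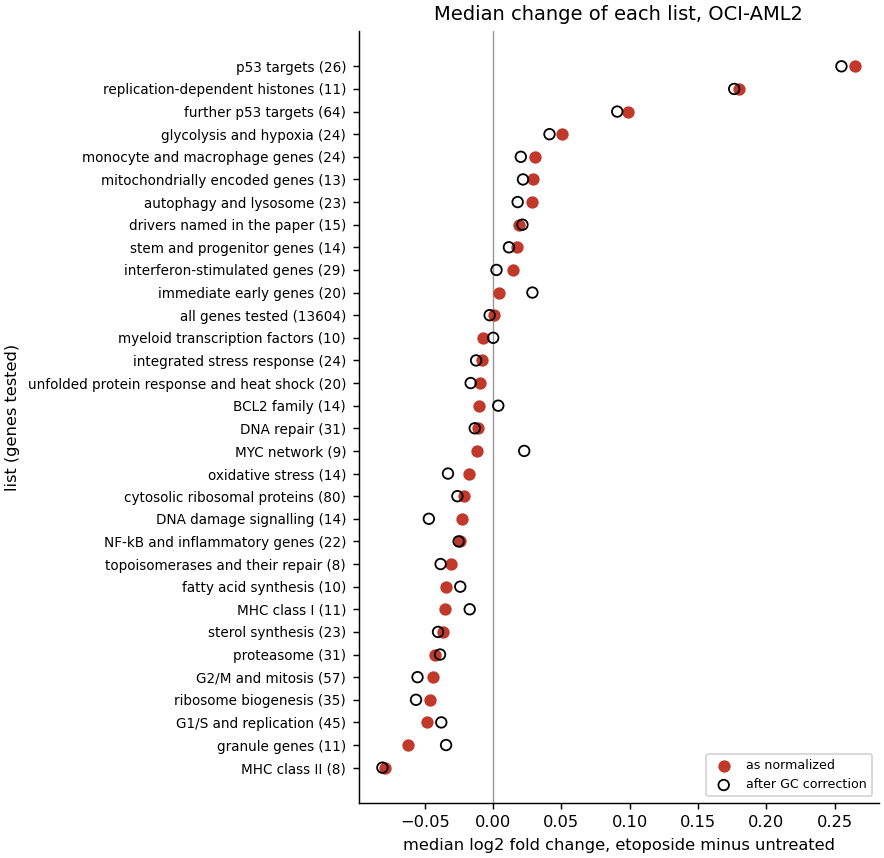
Median log2 fold change, etoposide minus untreated (horizontal axis), of each gene list with at least 8 genes tested (vertical axis, number tested in parentheses), as normalized (filled) and after GC correction (open). The p53 targets lie at 0.26, the replication-dependent histones at 0.18 and the further p53 targets at 0.10. The lists of replication, mitosis and ribosome biogenesis lie just below 0.

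Proliferation genes lay slightly below 0. Of 45 G1/S and replication genes, 35 were below 0, with a median of -0.05 (-0.04 after GC correction). At an unadjusted p under 0.05, 1 was lower (1.07% of all genes). That gene was MCM5, a subunit of the replicative helicase, at 316, 309 and 294 CPM untreated and 269, 272 and 292 CPM after etoposide. The list's deviations were -0.05, -0.03 and -0.02 in the etoposide libraries and between -0.01 and 0.01 in the untreated ones.

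Of 57 G2/M and mitosis genes, 47 were below 0 with a median of -0.04 (-0.06 after GC correction). At an unadjusted p under 0.05, 3 were lower (1.07% of all genes), KIF20A, CDC20 and PLK1. KIF20A, a kinesin of cytokinesis, was at 102, 94.4 and 98.3 CPM untreated and 86.2, 88.8 and 84.2 CPM after etoposide, without overlap (edgeR adjusted p = 0.998). The median was -0.01 without etoposide replicate 3 and -0.09 without etoposide replicate 2. The treated libraries disagreed on this list, with deviations of -0.05, 0.02 and -0.11, so the shift was within their spread. No member of either list passed the FDR limit in either fit.

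Ribosome biogenesis, which MYC drives, showed a similar small value, with 30 of 35 genes below 0, a median of -0.05 (-0.06 after GC correction) and deviations of -0.07, -0.03 and -0.03 in the etoposide libraries. The 80 cytosolic ribosomal protein genes had a median of -0.02 (-0.03 after GC correction). MYC was at 653, 640 and 648 CPM untreated and at 586, 566 and 642 CPM after etoposide, so that replicate 3 overlapped with the untreated libraries (log2 fold change -0.11, SE 0.05, edgeR adjusted p = 0.998).

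The genes of the drug's own targets and of damage signalling stayed within the spread between replicates. TOP2A, the proliferation-linked target of etoposide, ranged from 570 to 674 CPM untreated and from 494 to 716 CPM after etoposide. TOP2B ranged from 405 to 446 and from 354 to 485 CPM. TDP2, which removes trapped topoisomerase II from DNA ends, had a log2 fold change of -0.01 (SE 0.05), and SLFN11, which sensitizes cells to replication damage, one of 0.05 (SE 0.05). The median was -0.01 for 31 DNA repair genes (-0.01 after GC correction), -0.02 for 14 genes of DNA damage signalling (-0.05), -0.03 for 8 topoisomerases and their repair genes (-0.04) and -0.01 for 14 members of the BCL2 family (0.0038, a change of sign). In these lists 1 gene was higher at an unadjusted p under 0.05 and 0 were lower (2.28% and 1.07% of all genes). That gene is BAX, which stands on the p53 list as well.

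The study named a set of genes as drivers of etoposide cytotoxicity, and 15 of 15 were tested here, with a median of 0.02 (0.02 after GC correction). PLK1, the mitotic kinase, was at 219, 212 and 213 CPM untreated and 189, 195 and 210 CPM after etoposide, a small separation (log2 fold change -0.12, SE 0.05, edgeR adjusted p = 0.998). PLK1 and MYC were the 2 members with an unadjusted p under 0.05, both lower (1.07% of all genes). BCL2A1, an anti-apoptotic BCL2 relative that was called induced in 9 of the 10 other cell lines, was at 2.23 to 3.36 CPM untreated and 2.64 to 3.04 CPM after etoposide. PARP9, called induced in 7 other lines, had a log2 fold change of 0.04 (SE 0.09), and IGF1R, called repressed in 5, one of 0.03 (SE 0.06). These counts of lines come from fits made here, not from the study. The study gave fewer lines with IGF1R repressed, and classed PARP9 as a modulator, a type it defined by unchanged expression after treatment.

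The genes that most other cell lines moved were used as a further list. A gene entered it when at least 8 of the 10 other lines called it in the same direction with the study's criterion. Of 132 induced genes, 104 were tested in OCI-AML2, with a median log2 fold change of 0.10 (0.10 after GC correction) and 79 of them above 0 (50.2% of all genes). At an unadjusted p under 0.05, 6 were higher and 2 lower (2.28% and 1.07% of all genes). The groups lay apart upward for 14 and downward for 3 (5.37% and 3.56% of all genes). The deviations of the list were 0.02, 0.08 and 0.10 in the etoposide and -0.02, 0.03 and -0.01 in the untreated libraries, which overlap. Of 13 repressed genes, all tested, 10 were below 0 with a median of -0.11 (-0.08 after GC correction) and 0 with an unadjusted p under 0.05. Their deviations, -0.08, -0.03 and 0.01 in the etoposide and -0.02, -0.01 and 0.03 in the untreated libraries, overlap as well.

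Of 17 genes called induced in all 10 other lines, 15 were tested in OCI-AML2, with a median of 0.11 (0.09 after GC correction) and 12 above 0. At an unadjusted p under 0.05, 2 were higher (2.28% of all genes), CDKN1A among them. C3, the central complement component, had a log2 fold change of -0.02 (SE 0.12) in OCI-AML2 and of 1.06 to 5.61 in the other lines. FGR, a SRC-family kinase of myeloid cells, measured 156 to 161 CPM untreated and 147 to 166 CPM after etoposide, while its log2 fold change elsewhere was 1.39 to 5.62. CXCL8, the neutrophil chemokine interleukin 8, was at 37.1 to 51.0 CPM untreated and 44.1 to 58.6 CPM after etoposide, and PCDH12, a protocadherin, had a log2 fold change of 0.20 (SE 0.17). On the repressed side, INSIG1, TERT and POLR3G, each called in 9 other lines, had log2 fold changes of 0.05, -0.11 and -0.05 in OCI-AML2, each with overlapping groups.

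The p53 list was then set beside the other cell lines, each treated at its own concentration, so doses differed. The median log2 fold change of the targets was 0.26 in OCI-AML2 (26 tested), 0.25 in NB-4 (22 tested), 0.30 in F-36P (24 tested), 1.12 in MOLM-13 (25 tested) and 1.98 in OCI-AML3 (26 tested), so the sets compared are not all the same genes. The spread among the genes was narrow in OCI-AML2, from -0.09 to 0.73. The study's criterion was met upward by 0 of 26 targets tested in OCI-AML2, 15 of 25 in MOLM-13 and 24 of 26 in OCI-AML3, where 8.59% (MOLM-13) and 7.18% (OCI-AML3) of all genes tested were called upward.

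**Figure D5:**
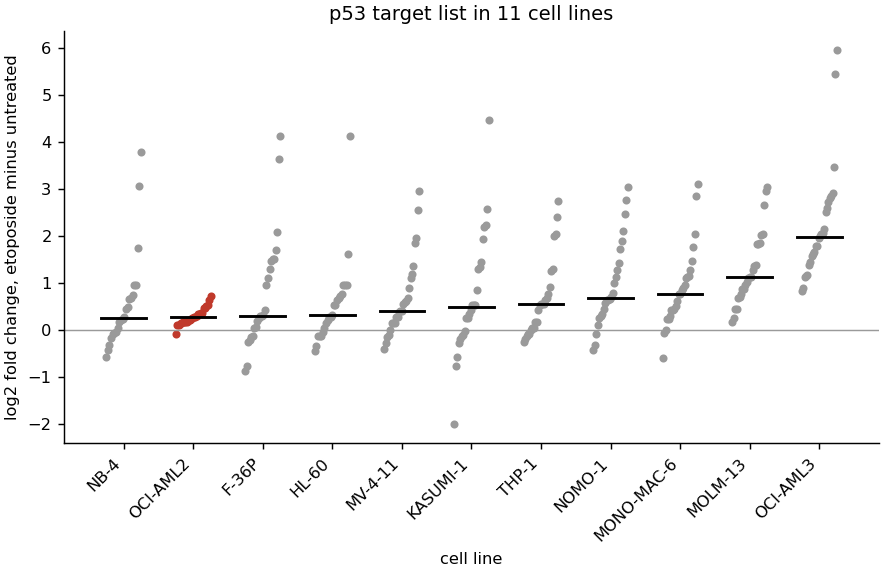
Log2 fold change, etoposide minus untreated (vertical axis), of the p53 targets in each of 11 cell lines (horizontal axis, ordered by the median, which the black bars mark), with OCI-AML2 in red. OCI-AML2 has a low median (0.26) and a narrow range (-0.09 to 0.73), and OCI-AML3 has the highest median (1.98).

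The feedback genes, with 3 or 4 tested per line, had medians from -0.22 in F-36P to 2.55 in OCI-AML3, and of 0.41 in OCI-AML2. MDM2 had log2 fold changes of 0.47 in OCI-AML2, 2.59 in OCI-AML3, 1.84 in MOLM-13 and 1.11 in MV-4-11. It had -0.33 in NB-4, -0.22 in F-36P and -0.02 in KASUMI-1. Over 1 normalization of all 66 libraries, it went from 90.1 to 138 CPM in NOMO-1 and from 50.2 to 76.8 CPM in MONO-MAC-6. MDM2 went from 69.9 to 78.8 CPM in HL-60 and from 137 to 144 CPM in THP-1. CDKN1A had 0.73 in OCI-AML2 and between 1.86 (MV-4-11) and 5.46 (OCI-AML3) in the other 10. After 1 normalization of all 66 libraries, untreated CDKN1A was at 47.2 ± 1.89 CPM in OCI-AML2 (SD, n = 3), the fourth highest of the 11 lines, and 78.0 ± 3.91 CPM after etoposide, the eighth. In OCI-AML3 it went from 37.3 ± 3.91 to 1631 ± 174 CPM, and in MOLM-13 from 249 ± 16.4 to 2134 ± 282 CPM.

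The differences between responses were tested as interaction terms, in fits that share the OCI-AML2 libraries. Lower and higher refer here to the response and not to the level, and a higher response can be a smaller fall. Against the mean response of the 10 other lines, 2756 of 20053 genes were lower in OCI-AML2 (13.7%) and 2024 higher (10.1%) at an FDR below 0.05. This fit gave no usable error for 4774 genes that were absent from some group. Among the 26 p53 targets, 14 were lower and 1 higher (TRIAP1, an inhibitor of apoptosis), and 4 could not be estimated. CDKN1A responded less in OCI-AML2 (log2 difference -2.63, SE 0.16, edgeR adjusted p = 2.63e-19), while the differences of MDM2 (-0.21, SE 0.10, adjusted p = 0.124) and ZMAT3 (-0.23, SE 0.13, adjusted p = 0.202) did not pass. The genes of smallest p on this side also included ALOX5AP, which serves leukotriene synthesis, TREML2, FGR and LPXN, with differences from -2.99 to -1.36. On the higher side, MYC differed by 1.56 (SE 0.12) and the survival gene BCL2 by 0.96 (SE 0.08).

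Against OCI-AML3, a line of the same AML class, 2001 of 15204 genes were lower (13.2%) and 1429 higher (9.4%) in OCI-AML2. All 26 p53 targets responded less in OCI-AML2, with a median difference of -1.68. The differences were -4.75 (SE 0.13) for CDKN1A, -2.14 (SE 0.09) for MDM2, -2.20 (SE 0.12) for ZMAT3 and -3.02 (SE 0.11) for TP53INP1. Among the genes with a higher response in OCI-AML2 were INSIG1 (1.41, SE 0.10) and SCD (1.17, SE 0.08), both of lipid synthesis. Another was BNIP3 (2.5, SE 0.17), which acts in mitophagy. The median log2 fold changes of the sterol and fatty acid synthesis lists were -0.04 and -0.03 in OCI-AML2 (-0.04 and -0.02 after GC correction). In OCI-AML3 they were -0.29 and -0.52.

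Against MOLM-13, 2944 of 14865 genes were lower (19.8%) and 3057 higher (20.6%). Of the 26 targets, 23 were lower and 0 higher in OCI-AML2, with a median difference of -0.96. CCNG1 (0.02, SE 0.13), TRIAP1 (-0.02, SE 0.10) and SPATA18 (-3.28, SE 1.36, edgeR adjusted p = 0.0701) did not pass. The smallest p-values among the genes with a higher response in OCI-AML2 included the cell cycle genes CCNA2 (1.31, SE 0.07) and GMNN (1.54, SE 0.08). PHGDH, which opens serine synthesis, was another (2.05, SE 0.11). The medians of the G1/S and G2/M lists were -0.05 and -0.04 in OCI-AML2, and -0.97 and -1.12 in MOLM-13. Among the genes with a lower response in OCI-AML2 was CYBB, the catalytic subunit of the phagocyte oxidase (-2.17, SE 0.11).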

How the data were processed

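RNA of OCI-AML2 and 10 other AML cell lines was sequenced (stranded mRNA libraries). Per the study's methods and the submitters' processing notes, the authors checked reads with FastQC 0.11.5, aligned them to GRCh38.p7 (STAR 2.5.3a, annotation of gencode release 25), and deposited raw counts of reads per gene, 1 library per file. Whether these counts keep the strands apart was not tested, so reads from the opposite strand of a gene may be included. From these counts, 57992 identifiers were analysed after leaving out 45 pseudoautosomal copies on chromosome Y with 0 reads, and 56948 were named by gencode release 44. Genes were kept by filterByExpr (minimum count 10, minimum total 15), normalized by TMM and tested with edgeR 4.0.16 (quasi-likelihood test, Benjamini-Hochberg adjustment over all genes tested) in R 4.3.3. DESeq2 1.42.0 and edgeR's exact test were alternatives. GC correction, added after seeing the data, subtracted a smooth trend of each library on GC content (known for 99.2% of genes).

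Replicate numbers were read from the labels. Deviations of same-numbered untreated and etoposide libraries from their group means correlated by 0.125, 0.115 and 0.219 over genes, each above 0.1, so the numbers were taken to pair the libraries. Differently numbered libraries correlated by -0.177 to 0.067. Each group was centred on its own mean, so values above 0 for the same numbers pull those of different numbers down. The contrast is therefore not separate evidence of pairing. Among genes at 10 CPM or more, untreated replicate 2 correlated by 0.1655 with etoposide replicate 1, close to its 0.224 with etoposide replicate 2. The labels give no other link between the libraries, so the pairing is an assumption.

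The lists and the genes compared were chosen with earlier results of these data known. Named genes were those past the FDR limit, the 5 largest changes each way, the p53 list, drug targets and drivers, up to 4 genes of smallest p per list, the genes most called in other lines and the 5 of smallest p each way per difference test. List medians are descriptions with no test. The programs were tested on simulated data. Other steps used Python 3.11.15. The values of some genes are not reported here.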

Additional observations from a re-analysis of the deposited data

Results flagged for a closer look

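The etoposide response of OCI-AML2 differed from that of the other cell lines for genes named above, each past an FDR of 0.05 for the interaction term in edgeR, with 3 libraries per group and line. Values are log2 differences, OCI-AML2 minus the other. Against the mean of the 10 other cell lines the difference was -2.63 for CDKN1A, 1.56 for MYC and 0.63 for PLK1. Against OCI-AML3 it was -4.75 for CDKN1A, -2.14 for MDM2, -2.20 for ZMAT3, 0.70 for MYC and 0.36 for PLK1. Against MOLM-13 it was -2.32 for CDKN1A, -1.39 for MDM2, -1.53 for ZMAT3, 0.52 for MYC and 1.14 for PLK1. The concentration of etoposide differed between the lines, so that line and dose cannot be told apart.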

How the results depend on the processing

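Depth limits genes under 1 CPM, and the wider spread among the etoposide libraries limits small changes. The count of genes meeting the study's criterion, 0, became 1 without the low-count filter (a gene below 1 CPM). Genes at an FDR below 0.05 numbered 3, and 20 with the replicate block, 16 with DESeq2, 20 with the exact test, 16 with GC correction, 33 with GC correction and the block, 5 with library size alone, 29 without the filter, and 1 to 45 leaving out 1 library. Genes higher at an unadjusted p under 0.05 numbered 310, and 139 with DESeq2, 522 with GC correction and the block, 537 without the filter, and 225 to 872 leaving out 1 library. Genes lower numbered 146, and 56, 443 and 356 in these 3 settings, 233 with GC correction, 89 at a mean of at least 5 CPM, 257 with the replicate block and 95 to 1070 leaving out 1 library. The fit of 66 libraries called 2 genes. Leaving out 1 library, medians ranged from 0.25 to 0.26 for the p53 targets, 0.071 to 0.13 for the further targets, 0.06 to 0.13 for genes induced in other lines and -0.12 to -0.038 for genes repressed there. With lists cut at 6 lines or without a fold minimum, the induced median was 0.052 and 0.029 and the repressed one -0.039 and -0.027; the repressed median was -0.047 at a mean of at least 5 CPM. Why the counts moved was not tested. CDKN1A kept its call in all 16 alternatives, and none of the 20 genes changed sign. The numbers of response differences stayed within 1.5 times under the 10 alternatives each, the replicate block included. The block changed no other call named in the report.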

Other observations

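Some groups outside the damage response are given as values. Of the 8 MHC class II genes tested, which present antigen, 7 were below 0 with a median log2 fold change of -0.08 (-0.08 after GC correction). The groups lay apart downward for 3 and upward for 0 (3.56% and 5.37% of all genes). At an unadjusted p under 0.05, 1 was lower (1.07% of all genes). It was HLA-DQB1, at 5.88, 5.50 and 5.56 CPM untreated and 4.34, 4.56 and 4.95 CPM after etoposide. Of 11 granule genes, 9 were below 0 (median -0.06, -0.03 after GC correction), 1 lay apart downward and 1 upward (3.56% and 5.37% of all genes). The one downward was CTSG, the neutrophil protease cathepsin G, which measured 539, 530 and 534 CPM untreated and 476, 499 and 518 CPM after etoposide. Of 24 glycolysis and hypoxia genes, 15 were above 0 with a median of 0.05 (0.04 after GC correction). At an unadjusted p under 0.05, 3 were higher and 0 lower (2.28% and 1.07% of all genes), and 1 lay apart upward and 1 downward. Of 11 replication-dependent histone genes tested, 9 were above 0 with a median of 0.18 (0.18 after GC correction). None of the 11 had an unadjusted p under 0.05 or lay apart between the groups. The histone median ranged from 0.073 to 0.29 leaving out 1 library, and from -0.0054 to 0.19 over the other alternatives. No gene named here passed the FDR limit with or without the block.

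The largest changes among genes with 1 CPM or more on average, an unadjusted p under 0.05 and no overlap between the groups were, upward, NECTIN4 (log2 fold change 0.97), FCER1A (0.94), UBE2Q2P13 (0.83), TRPM8 (0.77) and CDKN1A (0.73). Downward they were KRT81 (-0.73), ENSG00000250321 (-0.68), ENSG00000269374 (-0.64), NAMPTP1 (-0.63) and RPL35AP36 (-0.63). UBE2Q2P13, NAMPTP1 and RPL35AP36 are pseudogenes, whose reads are uncertain because they can be shared with the parent gene. Of the 10, FCER1A and CDKN1A passed the FDR limit with the block, and FCER1A did so at 2.56, 3.62 and 2.96 CPM untreated and 5.00, 6.09 and 6.45 CPM after etoposide.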
